A study of Homo sapiens with 18 samples.

Results

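The 39 genes described here encode the proteins that build the N-glycan precursor in the endoplasmic reticulum (ER), transfer it to new proteins and check the folding of those proteins through its glucoses. They were the rows of a table of 57736 Ensembl genes whose identifier carries one of 39 gene symbols, and each symbol matched 1 row. All 39 were among the 17317 genes that passed the filter on low counts.

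mRNA was measured in 18 libraries that form 6 groups of 3, all labelled A1847, a human high-grade serous ovarian cancer line. Control cells (called wild type in the labels), CARM1 knockout cells and XBP1 knockdown cells each received vehicle or tunicamycin at 5 μg/ml for 8 h. CARM1 is an arginine methyltransferase that acts on histones and other proteins, and XBP1 is a transcription factor whose spliced form drives ER stress genes. The knockout came from a CRISPR vector and the knockdown from a short hairpin RNA. Both were delivered by lentivirus with puromycin selection. Whether the knockout is a clone or a pool is not stated in the sources used here. The study's methods list a scramble control hairpin, but whether the control cells carried it is not in the labels. A legend of the study describes its experiments in general as biologically independent, while the labels give the libraries only replicate numbers, so p-values measure the spread between these libraries, which may in part be technical. Levels are given as CPM, read counts scaled to a common library size with TMM factors, from the 3′ ends of mRNA, and are compared within a gene. Differences are log2 fold changes with the standard error, tested with edgeR's quasi-likelihood test and adjusted over all genes tested by the Benjamini-Hochberg method. A gene was called at an FDR of 5%.

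N-glycans start on dolichol, a long lipid of the ER membrane. DPAGT1 adds the first sugar phosphate, which is the step that tunicamycin blocks, and the ALG enzymes then add mannose and glucose on both faces of the membrane. Oligosaccharyltransferase moves the finished glycan to asparagines of new proteins. Glucosidases remove its glucoses, and the UGGT enzymes put one back on misfolded proteins, so that the lectins calnexin and calreticulin hold them in the ER. Unfolded protein in the ER activates ATF6, IRE1 with XBP1, and PERK, and genes of protein folding and glycosylation are among the known targets of ATF6 and XBP1.

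Library totals ran from 9367462 to 13917212 counts. CARM1 remained detectable in the knockout libraries, at 67.3 to 77.6 CPM against 133 to 165 in control libraries. XBP1 was lower in the knockdown with vehicle (−0.86 ± 0.086, adjusted p = 2.54e-05) and with tunicamycin (−1.06 ± 0.054, adjusted p = 5.44e-09). The CARM1 knockout libraries stood apart from the 12 others. Across genes, their log2 CPM correlated with the others at r from 0.730 to 0.775, against 0.961 to 0.987 between control and knockdown libraries. PAX8, a marker of the Müllerian lineage from which this cancer arises, had 465 to 840 counts per library in knockout cells and 0 to 2 in control and knockdown cells. Of the fibroblast collagen genes, COL1A2 had 0 to 34 counts in knockout and 6840 to 12954 in the other libraries, and COL1A1 went the other way, with 2205 to 6247 counts in knockout and 54 to 259 in the others. Of 5 Müllerian markers, PAX8 alone had over 3 counts in every knockout library, and none did in every control or knockdown library. WT1 had 3 to 13 counts in knockout libraries. SOX17 and EMX2 had at most 1 in any library, and MUC16 was at 0 in all 18. Summed over the 5, the level was 40.1 to 66.0 CPM in knockout libraries and at most 0.379 CPM in the others. The 5 epithelial markers summed to 310 to 488 CPM in control, 1834 to 2275 in knockout and 130 to 214 in knockdown libraries. Among them, KRT19 had 5 to 44 counts in control, 0 in knockout and 0 to 4 in knockdown libraries. In the same order, 4 fibroblast markers summed to 714 to 889, 186 to 501 and 582 to 860 CPM. The part of these differences in the results was not tested. Whether the knockout libraries come from the same line as the others was not tested. Loss of CARM1 and the other differences of the knockout cells cannot be told apart in any value given below for knockout against control.

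Tunicamycin raised most genes of the pathway in control cells. Of the 39 members, 25 were higher with tunicamycin than with vehicle (64.1%, against 22% of all genes tested) and 4 were lower (10.3%, against 19.9% of all genes tested). Their median log2 fold change was 0.40, beside 0 for all genes. The libraries of the 2 groups did not overlap for any of the 29 members called. How often this holds among all genes called was not computed. In bulk mRNA, a change in the share of cells that respond and a change in mRNA per cell cannot be told apart. MAGT1, ALG12, MOGS, OSTC and UGGT2 had the largest increases, and DOLK, OST4, DPM3 and PRKCSH fell.

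**Figure D1:**
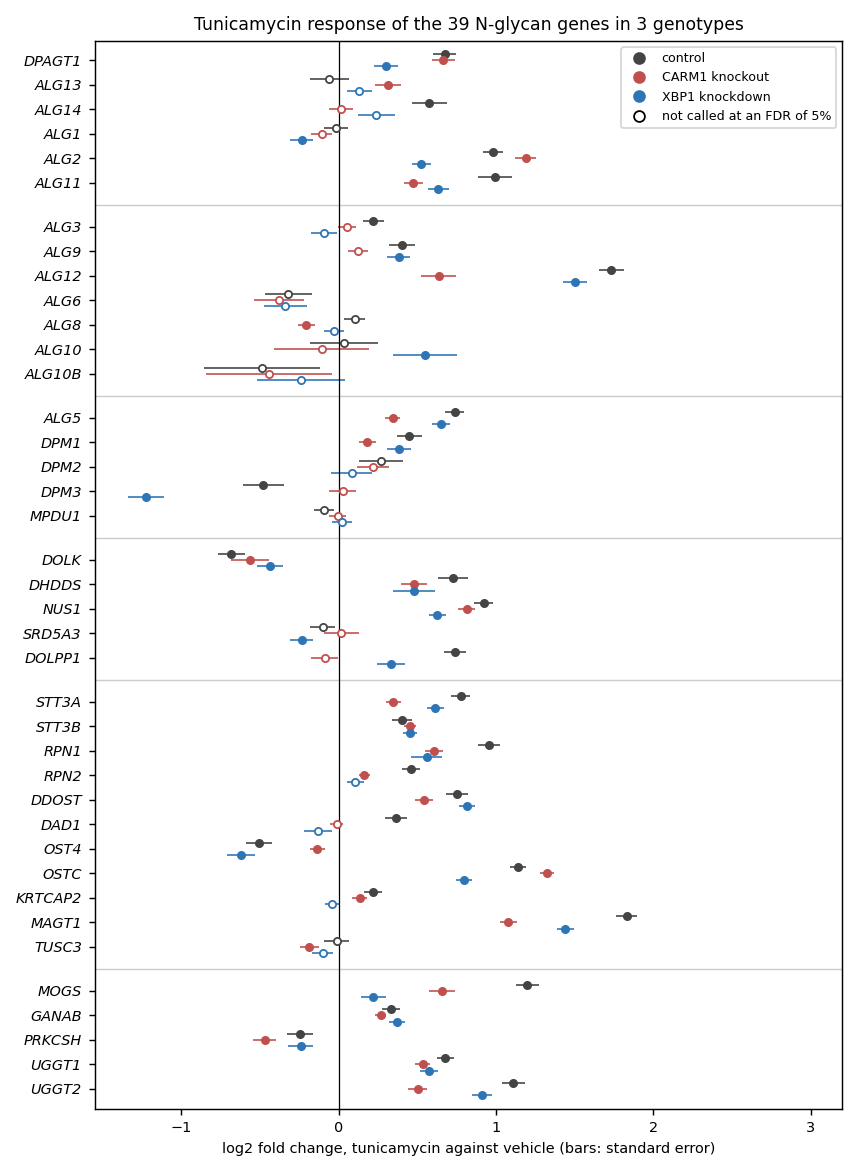
Log2 fold change of tunicamycin against vehicle for each of the 39 members (rows, grouped by step) in control, CARM1 knockout and XBP1 knockdown cells, with standard errors as bars and open symbols for genes not called at an FDR of 5%. MAGT1 and ALG12 lie farthest to the right in control cells, at 1.83 and 1.73, and DPM3 farthest to the left in knockdown cells, at −1.22.

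Among the 6 genes of the cytosolic face, DPAGT1, ALG2, ALG11 and ALG14 rose. DPAGT1, the target of tunicamycin, was at 41.1, 41.3 and 37.7 CPM in the vehicle libraries and at 63.8, 60.4 and 65.6 in the tunicamycin libraries. All 3 treated libraries lay above all 3 vehicle libraries, with a log2 fold change of 0.67 ± 0.072 (adjusted p = 1.08e-06). ALG2, which adds mannoses to the young chain, rose from 58.0, 56.9 and 58.2 to 121, 109 and 108 CPM (0.98 ± 0.065, adjusted p = 3.71e-09). ALG11 adds the mannoses that follow, and its log2 fold change was 0.99 ± 0.11 (adjusted p = 1.35e-06). Of the 75-base words in its annotated 3′ ends, 63.0% also occur in UTP14C, so reads of these genes may have been divided by the counting. ALG13 and ALG14 together form the enzyme that adds the second N-acetylglucosamine. ALG14 rose (0.58 ± 0.11, adjusted p = 0.000457), while ALG13 was at −0.059 ± 0.12 (adjusted p = 0.751) and ALG1, the first mannosyltransferase, at −0.016 ± 0.075 (adjusted p = 0.906).

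Of the 7 genes of the lumenal face, 3 rose. ALG12, which adds the eighth mannose, was at 26.0, 25.2 and 26.0 CPM with vehicle and 79.4, 83.1 and 91.9 CPM with tunicamycin. Each treated library lay over 3 times above each vehicle library, and the fold change of the fit was 3.32 (log2 1.73 ± 0.077, adjusted p = 2.55e-11). ALG9, the enzyme that acts before and after ALG12 on the same chain, rose by 0.40 ± 0.082 (adjusted p = 0.000791), and 48.2% of its 3′ words are shared with an overlapping gene model. ALG3, the first mannosyltransferase of the lumen, rose by 0.22 ± 0.068 (adjusted p = 0.0157). That call was lost without vehicle replicate 2 (0.16), without tunicamycin replicate 3 (0.18) and with library totals in place of TMM (0.13). The glucosyltransferases ALG6, ALG8, ALG10 and ALG10B were not called. ALG10 and ALG10B are near copies and hold few counts, 19 to 60 and 8 to 37 per library, and their 3′ ends share 16.3% and 10.4% of their words with each other.

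The promoters of a few members are printed with matches to known elements of ATF6 and XBP1. Whether either factor acts on these genes through them was not tested here. RefSeq promoters of 300 bases on GRCh38.p14, from 250 before to 50 after the start, matched 34 of the 39 members by symbol, and 27305 genes in all. The ER stress response element (ERSE: CCAAT, then 9 bases, then CCACG) was searched on both strands, and it was found in 0.0806% of all promoters (22 of 27305) and in 1 member, ALG12. Its match lies with its first base 134 before the start. HSPA5, the gene of the chaperone BiP, XBP1 itself and the lectin genes CANX and CALR also hold one. Their first bases lie 66 (HSPA5), 52 (XBP1), 151 (CANX) and 225 (CALR) before the start, and in CALR the element is on the opposite strand. The 5 matches are set out 5′ to 3′ on the strand of the gene, with the whole match in capitals.
ALG12: CCAATCCGAGTTCGCCACG
HSPA5: CCAATCGGCGGCCTCCACG
XBP1: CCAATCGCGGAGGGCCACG
CANX: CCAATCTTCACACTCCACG
CALR: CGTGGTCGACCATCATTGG

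ALG12 is the member with the ERSE, DHDDS the only member with the XBP1 element TGACGTGG, and MAGT1 the member with the largest response, so their promoters are given in full from RefSeq, with ERSE, TGACGTGG and single CCACG sites in capitals. ALG12 lies at chr22:49918389-49918688 on the minus strand, DHDDS at chr1:26432071-26432370 on the plus strand and MAGT1 at chrX:77895386-77895685 on the minus strand.
ALG12: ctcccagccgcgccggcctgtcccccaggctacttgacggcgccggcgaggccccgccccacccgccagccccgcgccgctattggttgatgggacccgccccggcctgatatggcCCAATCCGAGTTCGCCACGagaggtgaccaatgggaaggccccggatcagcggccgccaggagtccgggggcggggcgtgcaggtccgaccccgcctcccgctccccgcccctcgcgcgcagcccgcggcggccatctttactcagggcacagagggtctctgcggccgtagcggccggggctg
DHDDS: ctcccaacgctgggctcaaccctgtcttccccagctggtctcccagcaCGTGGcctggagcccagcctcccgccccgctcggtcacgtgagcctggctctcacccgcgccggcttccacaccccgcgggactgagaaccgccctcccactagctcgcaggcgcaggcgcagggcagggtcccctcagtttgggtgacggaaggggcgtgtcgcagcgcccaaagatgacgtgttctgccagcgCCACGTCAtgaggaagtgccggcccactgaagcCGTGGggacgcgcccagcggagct
MAGT1: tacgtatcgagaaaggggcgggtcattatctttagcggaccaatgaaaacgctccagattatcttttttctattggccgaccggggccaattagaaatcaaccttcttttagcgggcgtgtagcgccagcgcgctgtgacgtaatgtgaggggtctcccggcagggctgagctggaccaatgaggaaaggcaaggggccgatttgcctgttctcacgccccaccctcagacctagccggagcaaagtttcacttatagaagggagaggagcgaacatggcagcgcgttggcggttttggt

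TGACGTGG occurred in 0.795% of all promoters, and in DHDDS on the opposite strand with its first base 7 before the start. The short site CCACG, which is part of both elements, was in 22 of the 34 members (64.7%) and in 37.9% of all promoters. MAGT1 held none of these in its window. ERSE-II (ATTGGNCCACG) and the ATF4 and CHOP element TGATGNAAN were in 0 of the 34 members, and in 0.0549% and 3.67% of all promoters. A match of letters is a description of the window only.

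Genes of the dolichol-linked sugar donors and of dolichol itself moved both ways in control cells. ALG5, which makes dolichol phosphate glucose, rose from 71.7, 73.4 and 75.0 to 120.3, 125 and 118 CPM (0.74 ± 0.059, adjusted p = 3.4e-08). The 3 subunits of dolichol phosphate mannose synthase did not move together. DPM1, the catalytic subunit, rose (0.45 ± 0.081, adjusted p = 0.00026), and DPM2 was at 0.27 ± 0.14 (adjusted p = 0.147). DPM3, the membrane anchor of DPM1, fell from 59.4, 65.0 and 71.0 CPM to 33.9, 48.1 and 57.1 CPM, with all treated libraries below all vehicle libraries (−0.48 ± 0.13, adjusted p = 0.00727). The call of DPM3 was lost with DESeq2 (−0.49). MPDU1, needed for use of the dolichol-linked sugars, was at −0.090 ± 0.064 (adjusted p = 0.294). DHDDS and NUS1 encode the subunits of the prenyltransferase that makes the lipid chain, and both rose, by 0.73 ± 0.10 (adjusted p = 1.25e-05) and 0.92 ± 0.060 (adjusted p = 3.27e-09). DOLPP1, which recycles dolichol pyrophosphate, rose by 0.74 ± 0.070 (adjusted p = 2.92e-07). DOLK, the kinase of the last step to dolichol phosphate, went from 33.5, 32.4 and 32.4 to 21.3, 18.7 and 20.9 CPM. No library of one group reached into the other, and DOLK fell the most of all members (−0.68 ± 0.088, adjusted p = 9.32e-06). SRD5A3, a polyprenol reductase of the same route, was at −0.10 ± 0.079 (adjusted p = 0.338).

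Oligosaccharyltransferase had 9 of its 11 genes higher and 1 lower. MAGT1 is an oxidoreductase subunit of the complex built around the catalytic subunit STT3B. It was at 58.3, 60.3 and 61.1 CPM with vehicle and 224, 194 and 216 CPM with tunicamycin, the largest increase of the 39 genes (3.55-fold, log2 1.83 ± 0.066, adjusted p = 1.96e-12). TUSC3, its paralog, which takes the same place in the complex, stayed between 51.3 and 60.7 CPM in these 6 libraries (−0.011 ± 0.078, adjusted p = 0.942). OSTC, a subunit of the complex built around STT3A, rose from 129, 131 and 126 to 282, 274 and 287 CPM (1.14 ± 0.053, adjusted p = 4.48e-11). KRTCAP2, the other subunit particular to that complex, rose by 0.22 ± 0.058 (adjusted p = 0.00559), a call lost with library totals (0.13), and 50.6% of its 3′ words occur in other gene models. Of the shared subunits, RPN1 (0.96 ± 0.071, adjusted p = 1.45e-08), DDOST (0.75 ± 0.069, adjusted p = 1.81e-07), RPN2 (0.46 ± 0.055) and DAD1 (0.37 ± 0.071) rose. OST4, the smallest subunit, fell from 278, 275 and 282 to 170.2, 229.6 and 184 CPM (−0.50 ± 0.083, adjusted p = 0.000104).

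The balance of the paralogs was read as the log2 ratio of their counts within each library, which no scaling changes. MAGT1 over TUSC3 went from 0.11 ± 0.11 (SD, n = 3) to 1.95 ± 0.13 in control cells, from −0.49 ± 0.14 to 0.78 ± 0.10 in CARM1 knockout cells and from 0.064 ± 0.080 to 1.60 ± 0.042 in XBP1 knockdown cells. Vehicle and tunicamycin libraries did not overlap in any genotype. STT3A and STT3B both rose in control cells, by 0.78 ± 0.060 (adjusted p = 2.54e-08) and 0.40 ± 0.063 (adjusted p = 6.56e-05), and the ratio of STT3A to STT3B increased by 0.37. In knockout cells it changed by −0.10, and in knockdown cells by 0.16. Each of these 6 differences was larger than the spread of its libraries, and each had the smallest p that an exact two-sided permutation test of 3 libraries against 3 can give, 0.1.

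All 5 genes of glucose trimming and quality control were called, 4 higher and 1 lower. MOGS, glucosidase I, which removes the first glucose, was at 30.8, 31.3 and 33.4 CPM with vehicle and 74.1, 67.7 and 75.9 CPM with tunicamycin (1.20 ± 0.074, adjusted p = 1.65e-09). The lowest treated library was about 2 times the highest vehicle library. UGGT2 rose from 35.2, 42.0 and 37.9 to 83.4, 82.4 and 80.5 CPM (1.11 ± 0.073, adjusted p = 3.61e-09), and its paralog UGGT1, the main folding sensor, from 101, 98.5 and 94.9 to 154, 157 and 155 CPM (0.68 ± 0.056, adjusted p = 4.87e-08). The subunits of glucosidase II moved in opposite directions. GANAB, the catalytic subunit, rose (0.33 ± 0.057, adjusted p = 0.000145), and PRKCSH, the subunit that keeps it in the ER, fell (−0.25 ± 0.081, adjusted p = 0.0223). The fall of PRKCSH was not called without vehicle replicate 2 (−0.23) or tunicamycin replicate 3 (−0.21). In all 3 genotypes the log2 ratio of GANAB to PRKCSH increased, by 0.58, 0.74 and 0.61, without overlap between vehicle and tunicamycin libraries (exact two-sided permutation p = 0.1 in each, the smallest possible).

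**Figure D2:**
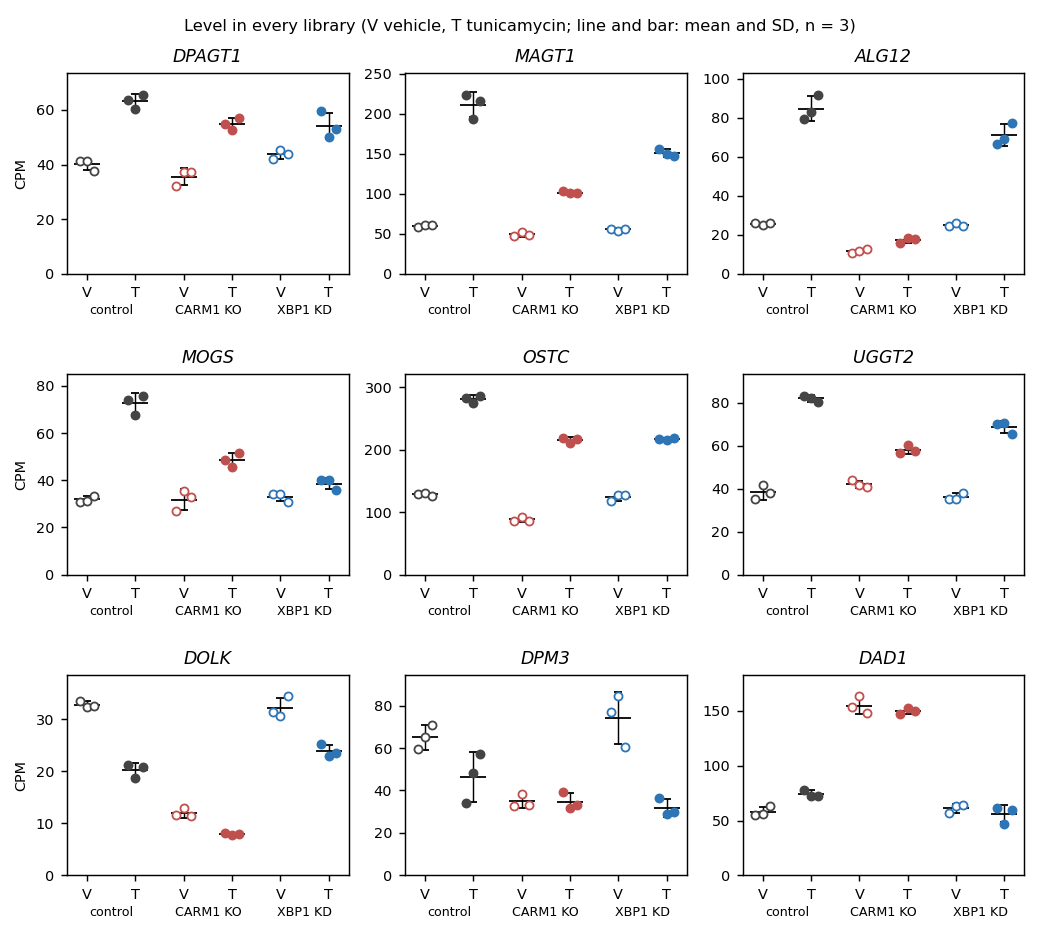
CPM of 9 members in every library (vertical axes from 0), in vehicle (V, open) and tunicamycin (T, filled) groups of the 3 genotypes, with the mean and SD of 3 libraries. DPAGT1, MAGT1, OSTC and UGGT2 rise in each genotype, MOGS rises least in XBP1 knockdown cells, and DAD1 is highest in CARM1 knockout cells with either treatment.

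The same treatment raised 21 members in CARM1 knockout cells (53.8%, against 20.6% of all genes tested) and lowered 5 (12.8%, against 18.8%). In XBP1 knockdown cells it raised 21 (53.8%, against 19.2%) and lowered 6 (15.4%, against 19%). The median log2 fold changes were 0.18 and 0.30. These comparisons share no library with each other or with the one in control cells. Of the 39 members, 18 were higher in all 3 genotypes, ALG9, DOLPP1, RPN2 and KRTCAP2 in 2, DOLK, OST4 and PRKCSH were lower in all 3, and none was higher in one genotype and lower in another. ALG6, ALG10B, DPM2 and MPDU1 were called in no genotype. The shares of all genes with these joint patterns were not computed. Across the 39 members the log2 fold changes of control cells had Pearson's r of 0.83 with those of knockout cells and 0.89 with those of knockdown cells (Spearman's rho 0.85 and 0.88), as a description over genes that are not independent.

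In CARM1 knockout cells OSTC had the largest increase, from 86.2, 92.8 and 85.8 to 218, 210.4 and 218 CPM (1.32 ± 0.043, adjusted p = 1.42e-16). ALG2 followed, from 33.7, 36.0 and 38.6 to 74.6, 83.9 and 80.9 CPM (1.19 ± 0.065, adjusted p = 1.78e-12). MAGT1 rose by 1.08 ± 0.053 (adjusted p = 2.43e-13), NUS1 by 0.81 ± 0.054 and DPAGT1, from 32.0, 37.3 and 37.3 to 54.9, 52.5 and 57.0 CPM, by 0.67 ± 0.071 (adjusted p = 9.54e-08). Vehicle and tunicamycin libraries did not overlap for these 5 genes. DOLK (−0.56 ± 0.12, adjusted p = 0.000794), PRKCSH (−0.47 ± 0.075, adjusted p = 2.58e-05), the glucosyltransferase ALG8 (−0.20 ± 0.053, adjusted p = 0.00338) and TUSC3 (−0.19 ± 0.058, adjusted p = 0.0145) fell. OST4 was called lower too (−0.13 ± 0.047, adjusted p = 0.0267), but its libraries overlapped, and its call was lost without vehicle replicate 1 (−0.11) or tunicamycin replicate 2 (−0.12) or 3 (−0.085). TUSC3 lost its call without vehicle replicate 1 (−0.16) or tunicamycin replicate 1 (−0.14), and the count of lower members was 3 without vehicle replicate 1.

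ALG12 had the largest increase in XBP1 knockdown cells, from 24.5, 26.3 and 24.3 to 66.5, 69.4 and 77.6 CPM (1.50 ± 0.076, adjusted p = 5.24e-10), and MAGT1 the next, from 56.1, 53.5 and 56.4 to 156, 150.0 and 147 CPM (1.44 ± 0.054, adjusted p = 1.54e-11). UGGT2 (0.91 ± 0.065), DDOST (0.81 ± 0.049) and OSTC (0.80 ± 0.049) came after them. DPAGT1 rose from 41.9, 45.5 and 43.9 to 59.5, 50.0 and 52.9 CPM (0.30 ± 0.075, adjusted p = 0.00456), again without overlap. DPM3 fell from 77.2, 84.3 and 60.4 to 36.4, 28.8 and 29.9 CPM, the largest decrease of any member in the 3 genotypes (−1.22 ± 0.11, adjusted p = 4.47e-07). OST4 (−0.62 ± 0.089), DOLK (−0.43 ± 0.084), PRKCSH (−0.24 ± 0.081, adjusted p = 0.0284), ALG1 (−0.24 ± 0.074, adjusted p = 0.0203) and SRD5A3 (−0.23 ± 0.071, adjusted p = 0.0157) also fell. PRKCSH lost its call without any 1 of 5 libraries (−0.16 to −0.25; it held without tunicamycin replicate 3), ALG1 without vehicle replicate 2 or 3 or tunicamycin replicate 1 or 2 (−0.21 to −0.23) and SRD5A3 without vehicle replicate 2 (−0.20) or tunicamycin replicate 2 (−0.22). The count of lower members was 3 without vehicle replicate 2 or tunicamycin replicate 2. With any 1 library left out, 18 to 20 members were higher, against 21 with all kept. Of all 17317 genes, those fits called 2883 to 3111 higher. ALG10, which holds few counts, was among the 21, and its call was lost in 10 alternative fits (0.50 to 0.61).

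**Figure D3:**
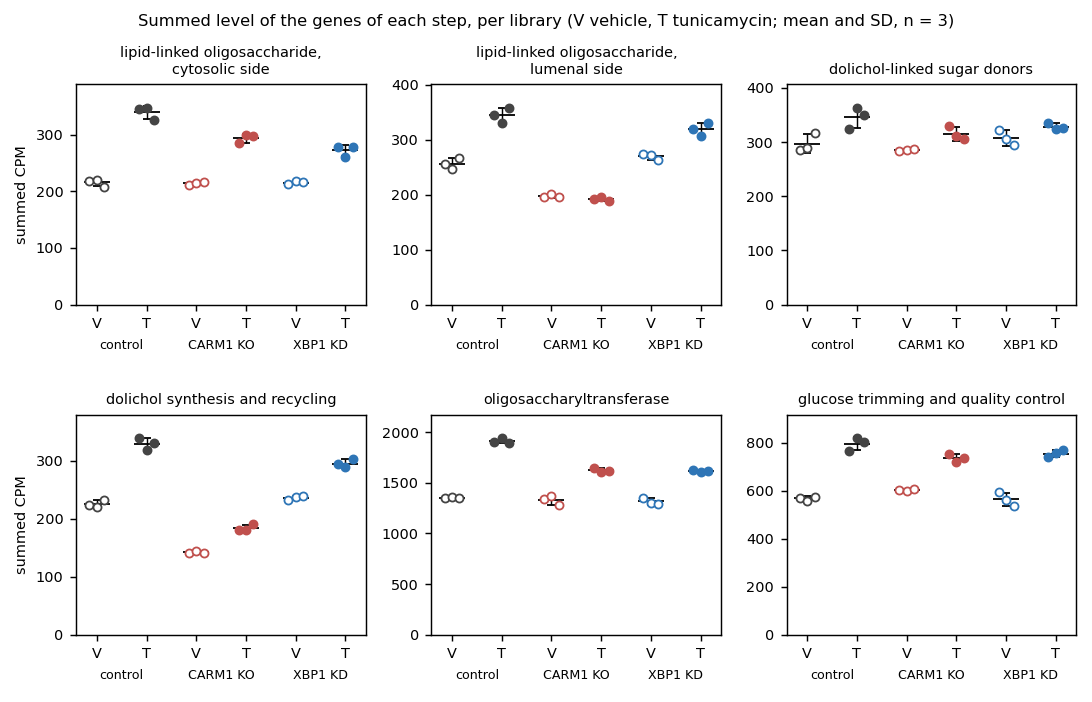
Summed CPM of the members of each step in every library (vertical axes from 0), with the mean and SD of 3 libraries per group. Tunicamycin libraries lie above vehicle libraries in every panel for control cells, while the sum of the lumenal step in CARM1 knockout cells is 197 with vehicle and 192 with tunicamycin.

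Summed over the 39 genes, the level rose from 2918 ± 29.7 (SD, n = 3) to 4071 ± 45.3 CPM in control cells, from 2770.0 ± 41.3 to 3343 ± 36.6 in CARM1 knockout cells and from 2909.6 ± 74.8 to 3588 ± 39.5 in XBP1 knockdown cells. Vehicle and tunicamycin libraries did not overlap in any genotype. With tunicamycin, the lowest control library (4029 CPM) lay above the highest knockdown library (3622 CPM) and the highest knockout library (3384 CPM). The 7 genes of the lumenal face summed to 256 ± 10.1 and 344 ± 13.9 CPM in control cells, and to 197 ± 3.33 and 192 ± 3.97 CPM in knockout cells, where the groups overlapped. A sum gives most weight to the genes with the most counts.

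XBP1 knockdown cells were compared with control cells under vehicle and under tunicamycin. Loss of XBP1 and other effects of the hairpin or its vector cannot be told apart in these values. With vehicle, 1 member differed. Of 39 members, edgeR called 0 higher (against 2.07% of all genes tested) and 1 lower (2.56%, against 3.03%). At an unadjusted p under 0.05 there was 1 in each direction. DESeq2 called 0 higher and 1 lower, beside 371 and 478 of the 14414 genes it tested. The fit without knockdown replicate 3 called 1 higher and the one without control replicate 3 called 2 lower. The member was KRTCAP2, at 175, 177 and 175 CPM in control and 147, 146 and 143 CPM in knockdown libraries (−0.28 ± 0.049, adjusted p = 0.00355). DPAGT1 was at 41.1, 41.3 and 37.7 and 41.9, 45.5 and 43.9 CPM, a difference of 0.12 ± 0.072 (adjusted p = 0.405).

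With tunicamycin, 16 members lay lower in the XBP1 knockdown than in the control (41%, against 8.55% of all genes tested) and 2 were higher (5.13%, against 6.99%). MOGS was at 74.1, 67.7 and 75.9 CPM in control and 40.1, 40.0 and 35.7 CPM in knockdown libraries, 0.533 times the control level (−0.91 ± 0.072, adjusted p = 4.25e-07). KRTCAP2 (−0.51 ± 0.057, adjusted p = 1.72e-05), ALG11 (−0.50 ± 0.069, adjusted p = 0.000122), MAGT1 (−0.48 ± 0.058, adjusted p = 3.27e-05) and ALG2 (−0.48 ± 0.065, adjusted p = 0.000107) came next among genes whose groups did not overlap. For each of these 5 the knockdown libraries lay below all control libraries. OSTC, DAD1, RPN2, RPN1, STT3A, UGGT2, ALG12, ALG1, NUS1, DOLPP1 and DPM3 were the others called lower, from −0.54 for DPM3 to −0.18 for NUS1. Oligosaccharyltransferase supplied 7 of the 16. The 2 higher members were ALG13 (0.38 ± 0.11, adjusted p = 0.0297) and MPDU1 (0.23 ± 0.060, adjusted p = 0.0173). DPAGT1 was at 63.8, 60.4 and 65.6 CPM in control and 59.5, 50.0 and 52.9 CPM in knockdown libraries, with no overlap and no call (−0.22 ± 0.074, adjusted p = 0.0563). It was called lower in 5 alternative fits (−0.30 to −0.22), which were those with no filter, a joint fit or a replicate block, without control replicate 2 and without knockdown replicate 1.

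Many of these differences are small, and 10 of the 18 calls were lost in at least 1 alternative fit. The count of lower members was 9 without control replicate 3, where ALG1, ALG12, DOLPP1, DPM3, NUS1, RPN1 and STT3A lost their calls (−0.36 to −0.18). It was 10 without knockdown replicate 2, where the same genes other than STT3A did (−0.48 to −0.17). Of all 17317 genes tested, 906 and 1118 were called lower in these fits, against 1481 with every library kept. UGGT2 lost its call without knockdown replicate 3 (−0.22). Neither higher member was called without control replicate 1 (ALG13 0.38, MPDU1 0.20), control replicate 3 (0.25 and 0.22) or knockdown replicate 3 (0.34 and 0.22). Without knockdown replicate 1 the ALG13 call was lost (0.35), and without knockdown replicate 2 that of MPDU1 (0.20). The calls of MOGS, KRTCAP2, ALG11, MAGT1, ALG2, OSTC, RPN2 and DAD1 held in every fit run.

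**Figure D4:**
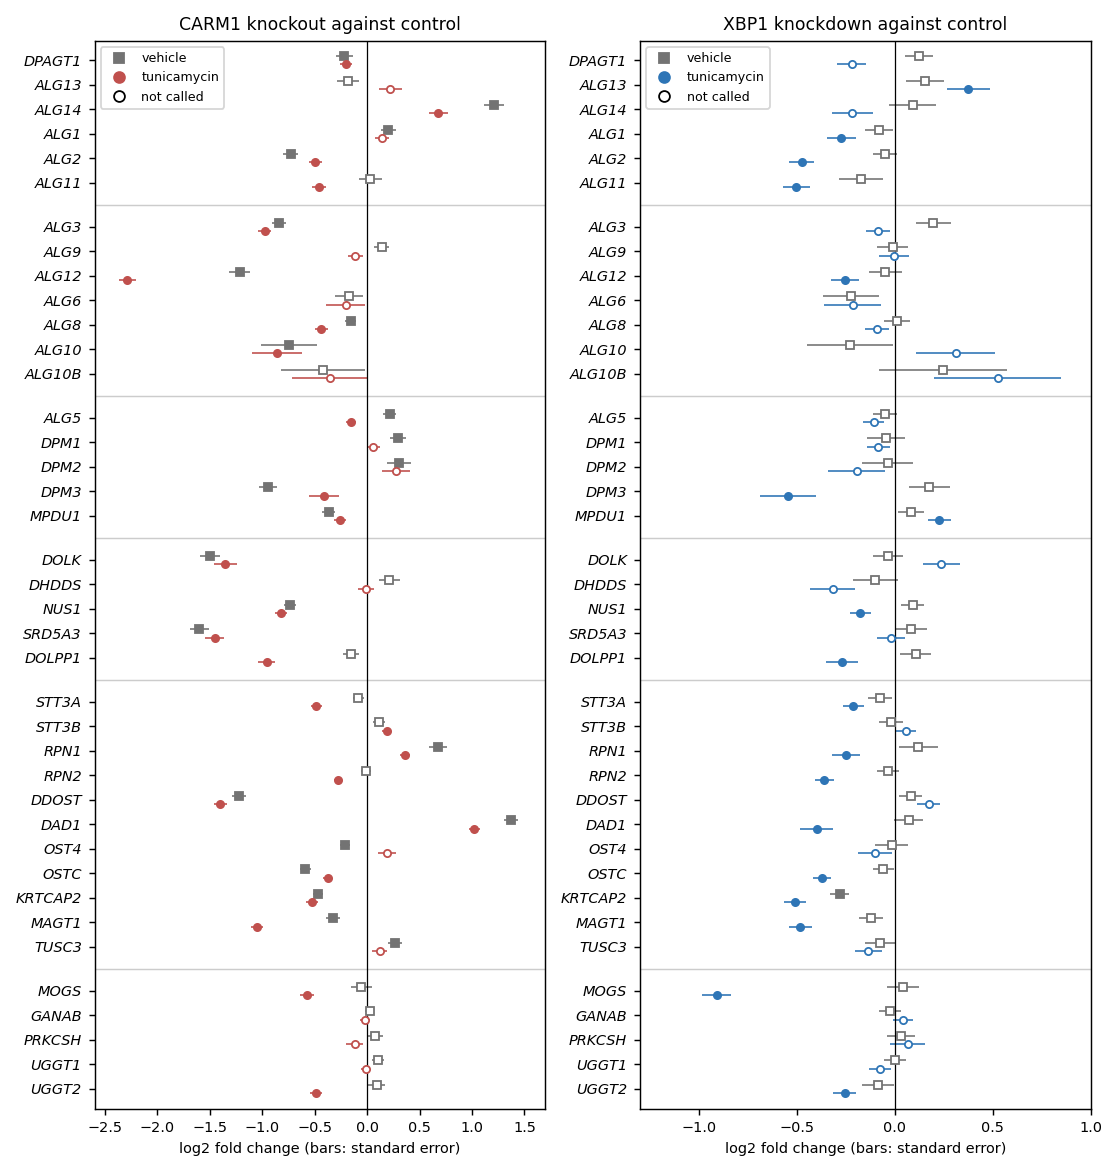
Log2 fold change of CARM1 knockout (left) and XBP1 knockdown (right) against control cells for each member, under vehicle (grey squares) and tunicamycin (coloured circles), with standard errors as bars and open symbols for genes not called. In the right panel the vehicle symbols lie near 0, with KRTCAP2 alone called, while MOGS lies at −0.91 with tunicamycin.

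Whether the response to tunicamycin itself differed in the knockdown was tested as the interaction of genotype and treatment. It was lower for 6 members (15.4%, against 1.67% of all genes tested) and higher for 0 (against 0.364%). At an unadjusted p under 0.05, 16 were lower and 1 was higher. The share of all genes at that p was not computed. DESeq2 called 8 lower and 0 higher, beside 361 and 104 of the 8523 genes it tested. MOGS had the largest term, with −0.97 ± 0.11 (adjusted p = 2.7e-05). Its response was 1.20 ± 0.074 in control and 0.22 ± 0.078 in knockdown cells, and the latter was not called in 6 of the alternative fits. DAD1 (−0.49 ± 0.12, adjusted p = 0.0346), ALG2 (−0.45 ± 0.086, adjusted p = 0.00596), MAGT1 (−0.38 ± 0.082, adjusted p = 0.0145), RPN2 (−0.35 ± 0.074, adjusted p = 0.0145) and OSTC (−0.33 ± 0.066, adjusted p = 0.00787) were the others. For DPAGT1 the term was −0.37 ± 0.10 (adjusted p = 0.0739), and it was called without knockdown tunicamycin replicate 1 (−0.44). DAD1 lost its call in 7 of the 12 fits that left out 1 library, without vehicle replicates 1 or 2 or tunicamycin replicates 1 or 3 of control cells, or vehicle replicates 2 or 3 or tunicamycin replicate 2 of knockdown cells (−0.51 to −0.38). RPN2 lost it without control tunicamycin replicate 1 (−0.31), knockdown vehicle replicate 2 (−0.32) or knockdown tunicamycin replicate 3 (−0.32), and MAGT1 without control tunicamycin replicate 1 (−0.32) or 3 (−0.36) or knockdown tunicamycin replicate 3 (−0.36). MOGS, ALG2 and OSTC held in all 12. Those fits gave 4 to 8 lower members.

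CARM1 knockout and control cells differed at most of the 17317 genes tested, so the members were read against that share. With vehicle, 8 were higher (20.5%, against 37.5% of all genes tested) and 16 were lower (41%, against 36.9%). With library totals in place of TMM, which moves the median of all genes to −0.20, the counts were 3 and 23, beside 32.6% and 43.4% of all genes, and with the size factors of DESeq2 12 and 14, beside 38.7% and 35.6%. DAD1, the subunit named defender against cell death, was at 55.0, 56.0 and 62.8 CPM in control and 153, 163 and 148 CPM in knockout libraries (1.37 ± 0.063, adjusted p = 1.78e-11). ALG14 was also higher, from 14.1, 13.2 and 12.04 to 32.2, 31.8 and 29.5 CPM (1.21 ± 0.10, adjusted p = 1.33e-08). RPN1 (0.68 ± 0.086), DPM2 (0.30 ± 0.11) and DPM1 (0.30 ± 0.078) followed, and with library totals DPM2 (0.13) and DPM1 (0.13) were not called. DPM2 was not called either without control replicate 1 (0.25) or knockout replicate 2 (0.24).

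SRD5A3 and DOLK, both of dolichol synthesis, were lower by the most. SRD5A3 was at 39.7, 41.4 and 45.7 CPM in control and 14.2, 15.4 and 13.4 CPM in knockout libraries (−1.60 ± 0.093, adjusted p = 3.09e-10). DOLK went from 33.5, 32.4 and 32.4 to 11.6, 12.9 and 11.3 CPM (−1.50 ± 0.093, adjusted p = 6.96e-10). DDOST, the oligosaccharyltransferase subunit, went from 110.2, 99.5 and 110.4 to 48.0, 49.1 and 44.4 CPM (−1.22 ± 0.065, adjusted p = 1.1e-10). The knockout libraries of all 3 genes stayed below 0.5 times the lowest control library. ALG12 (−1.22 ± 0.10, adjusted p = 2.04e-08) and DPM3 (−0.95 ± 0.084, adjusted p = 5.6e-08) came next. SRD5A3 and DDOST share 37.4% and 41.0% of their 3′ words with other gene models, PINK1-AS in the case of DDOST. DPAGT1, at 32.0, 37.3 and 37.3 CPM in the knockout, was lower too (−0.22 ± 0.082, adjusted p = 0.0244), and 5 alternative fits did not call it, among them those without control replicate 1 (−0.19), control replicate 2 (−0.17) or knockout replicate 1 (−0.15). None of the 5 genes of glucose trimming was called with vehicle when TMM was used among the libraries of these groups. Library totals called MOGS (−0.23) and GANAB (−0.15) lower. The size factors of DESeq2 and the joint fit called UGGT1 higher (0.14 to 0.15).

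With tunicamycin, 22 members were lower in knockout than in control cells (56.4%, against 36.8% of all genes tested) and 4 were higher (10.3%, against 38.4%). The size factors of DESeq2 gave 22 lower and 8 higher, beside 35.8% and 39.1% of all genes. Library totals, which move the median of all genes to −0.18, gave 26 and 3, beside 42.9% and 33.6%. ALG12 had the largest difference, with 79.4, 83.1 and 91.9 CPM in control and 15.7, 18.4 and 17.8 CPM in knockout libraries, 0.205 times the control level (−2.29 ± 0.082, adjusted p = 1.76e-12). SRD5A3 (−1.46 ± 0.091), DDOST (−1.40 ± 0.063) and DOLK (−1.35 ± 0.11) again lay lower. MAGT1 was at 224, 194 and 216 CPM in control and 103, 100.5 and 101 CPM in knockout libraries (−1.05 ± 0.056, adjusted p = 1.77e-10). The higher members were DAD1 (1.02 ± 0.051), ALG14 (0.68 ± 0.088), RPN1 (0.36 ± 0.050) and STT3B (0.18 ± 0.045, adjusted p = 0.0018), and STT3B was at 0.019 and not called with library totals. Without control replicate 2 the count of higher members was 7. DPAGT1 was lower (−0.20 ± 0.061, adjusted p = 0.00805), a call lost without control replicate 3 (−0.16).

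The response to tunicamycin was lower in knockout than in control cells for 14 members (35.9%, against 12.4% of all genes tested) and higher for 1 (2.56%, against 10.5%), by the interaction term. Library totals gave 13 and 3, beside 10.4% and 12.6% of all genes. The count of higher responses ran from 0 to 4 when 1 library was left out, 0 being without knockout vehicle replicate 3 or knockout tunicamycin replicate 1. ALG12 had the largest term (−1.12 ± 0.13, adjusted p = 2.23e-06), and it rose 3.32-fold in control and 1.55-fold in knockout cells. DOLPP1 rose in control cells and was at −0.089 ± 0.086 in knockout cells (interaction −0.85 ± 0.11, adjusted p = 1.07e-05). MAGT1 (−0.77 ± 0.085, adjusted p = 1.17e-06), UGGT2 (−0.63 ± 0.093, adjusted p = 4.62e-05) and ALG14 (−0.58 ± 0.13, adjusted p = 0.00207) followed. The log2 ratio of UGGT2 to UGGT1 increased by 0.44 in control cells and changed by −0.033 in knockout cells, where the libraries overlapped (exact two-sided permutation p = 0.1 and 0.8). OST4 was the 1 member called with a positive term (0.35 ± 0.11, adjusted p = 0.0245). DPM3 had a larger term that was not called (0.48 ± 0.19, adjusted p = 0.0685), and OSTC was at 0.16 ± 0.065 (adjusted p = 0.0748). OSTC was called in 9 alternative fits (0.20 to 0.25) and DPM3 in 5 (0.54 to 0.74), among them those without any 1 control library for OSTC, and those without control vehicle replicate 1 or control tunicamycin replicate 2 or 3 for DPM3. OST4 fell less in the knockout, and its call was lost without knockout vehicle replicate 3 (0.32) or knockout tunicamycin replicate 1 (0.29). The response of DPAGT1 was 0.67 in control and 0.67 in knockout cells, with an interaction of −0.028 ± 0.10 (adjusted p = 0.897).

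**Figure D5:**
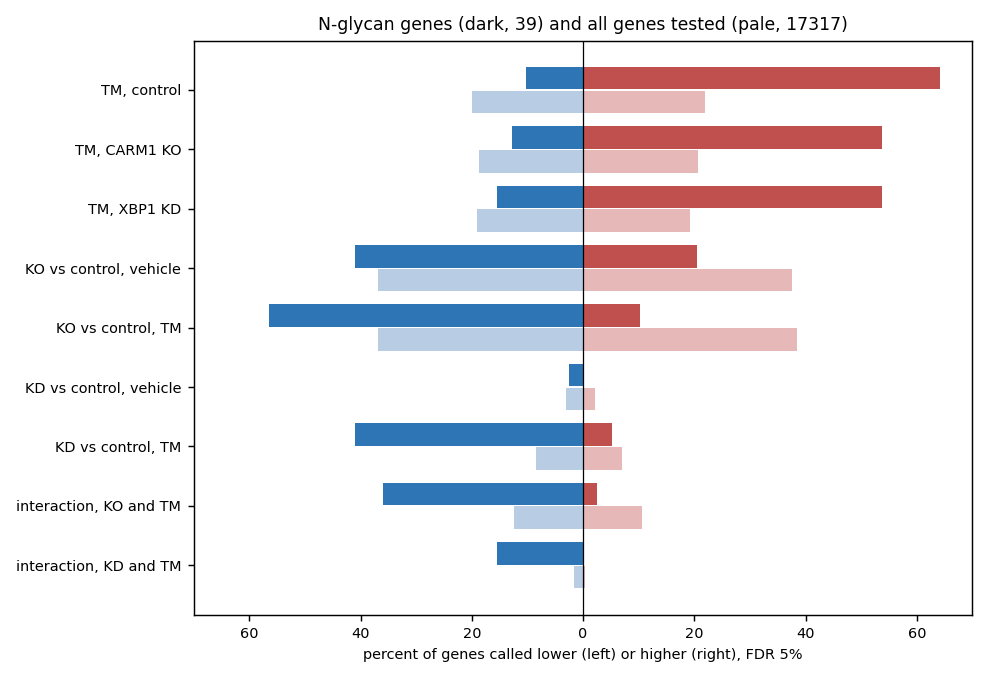
Percent of the 39 N-glycan genes (dark bars) and of all 17317 genes tested (pale bars) called lower (left of 0) or higher (right of 0) at an FDR of 5% in the 9 comparisons; TM is tunicamycin, KO the CARM1 knockout and KD the XBP1 knockdown. The dark bar for higher genes reaches 64.1% in control cells against 22% for all genes, and that for lower genes 41% against 8.55% for knockdown against control with tunicamycin.

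Genes around the pathway were read from a list of 34 that are not members. In control cells, tunicamycin raised 19 (55.9%, against 22% of all genes tested) and lowered 5 (14.7%, against 19.9%), with a median of 0.54. The 11 lectin, trimming and disposal genes of the ER had 10 higher, as they did in CARM1 knockout and XBP1 knockdown cells. Of 7 genes that make sugar donors, 6 rose, and of 13 mannosidases and glycosyltransferases of the Golgi, 2 rose and 5 fell. The largest changes of those called were those of GMPPB, which makes GDP-mannose (2.56 ± 0.092, adjusted p = 2.01e-12), and of EDEM1 (2.24 ± 0.14) and EDEM2 (2.24 ± 0.20), which mark misfolded glycoproteins for disposal. Tunicamycin raised 24 (70.6%, against 20.6%) and lowered 3 (8.82%, against 18.8%) of the 34 in knockout cells, led by EDEM1 (2.05 ± 0.10), GMPPB (1.71 ± 0.078) and the lectin ERLEC1 (1.49 ± 0.065). In knockdown cells it raised 18 (52.9%, against 19.2%) and lowered 7 (20.6%, against 19%), led by the Golgi genes MGAT4B (−1.73 ± 0.094) and MAN1C1 (−1.68 ± 0.25), both lower, and GMPPB (1.72 ± 0.089).

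With tunicamycin, 16 of the 34 were lower in the knockdown than in control cells (47.1%, against 8.55% of all genes) and 1 was higher (2.94%, against 6.99%). With vehicle, 3 were lower (8.82%, against 3.03%) and 1 was higher (2.94%, against 2.07%). MGAT2 (−1.20 ± 0.10, adjusted p = 4.84e-07), which starts the second branch of complex glycans, and EDEM2 (−1.05 ± 0.17, adjusted p = 0.000532) had the largest called differences with tunicamycin, and MAN1C1, a Golgi mannosidase, the largest with vehicle (−1.28 ± 0.14, adjusted p = 6.2e-05). The interaction was lower for 7 (20.6%, against 1.67%) of them in the knockdown, led by MGAT2 (−1.11 ± 0.16), ERLEC1 (−0.86 ± 0.075) and GMPPB (−0.83 ± 0.13). In the CARM1 knockout it was lower for 11 (32.4%, against 12.4%) and higher for 9 (26.5%, against 10.5%), with ST6GAL1, a sialyltransferase (2.07 ± 0.22), EDEM2 (−1.53 ± 0.28) and the lectin OS9 (−1.35 ± 0.073) in front. Against control, the knockout had 22 of the 34 higher (64.7%, against 37.5%) and 9 lower (26.5%, against 36.9%) with vehicle. With tunicamycin it had 18 higher (52.9%, against 38.4%) and 9 lower (26.5%, against 36.8%). MAN1A1, a Golgi mannosidase (4.14 ± 0.81 and 3.19 ± 0.77), and UAP1, which makes UDP-N-acetylglucosamine, were higher with both treatments (UAP1 1.91 ± 0.059 and 2.75 ± 0.053). MAN1C1, a related Golgi mannosidase, was lower with vehicle (−3.00 ± 0.20, adjusted p = 2.21e-09), and ST6GAL1 higher with tunicamycin (2.17 ± 0.17).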

How the data were processed

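Lexogen 3′ mRNA-seq libraries were sequenced as single reads of 75 nt on a NextSeq 500, aligned with bowtie2 to hg19 and counted with RSEM by the authors, who deposited expected counts as whole numbers for 57736 Ensembl genes in 18 libraries. The RSEM release differs between the sources used here, and the Ensembl release is not given in them. Library totals were 9367462 to 13917212. Genes were kept by filterByExpr (minimum count 10, 17317 genes). Expected counts as deposited were tested with edgeR 4.0.16 (quasi-likelihood, TMM scaling, R 4.3.3) among the libraries of each comparison, with genotype by treatment interactions, and p-values were adjusted over all genes tested by Benjamini-Hochberg at 0.05. The standard error is the log2 fold change divided by the root of F. Scripts were tested on simulated data.

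The 39 members and the lists were chosen with earlier results of these data known. Named genes were, in each comparison and direction, up to 5 members past the threshold with the largest change and no overlap between groups (for interactions, the largest change), and 3 of the wider list, together with DPAGT1 and genes read for their role. Alternatives were DESeq2 1.42.0 and its size factors, library totals, no filter, one joint fit of the 18 libraries, a block for the replicate number and each library left out. Replicates differed by more than sampling noise. Replicate numbers did not pair the libraries. Sequences came from RefSeq, GRCh38.p14. 3′ ends were compared by 75-base words of GENCODE transcripts lifted to hg19.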

Additional observations from a re-analysis of the deposited data

Results flagged for a closer look

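The response to tunicamycin differed between CARM1 knockout and control cells for 15 members, by the interaction term of edgeR's quasi-likelihood test. Loss of CARM1 and the other differences of the knockout cells cannot be told apart here. The response was lower for 14 (35.9%, against 12.4% of all genes tested) and higher for 1 (2.56%, against 10.5%). On the log2 scale the terms were −1.12 for ALG12, −0.85 for DOLPP1, −0.77 for MAGT1, −0.63 for UGGT2, −0.58 for ALG14, −0.56 for MOGS, −0.54 for ALG11, −0.45 for STT3A, −0.41 for ALG5, −0.40 for DAD1, −0.37 for RPN1, −0.32 for ALG8, −0.32 for RPN2, −0.30 for ALG9 and 0.35 for OST4. ALG9 lost its call in 15 alternative fits, RPN1 in 4, and ALG8 and OST4 in 3 each.

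Between XBP1 knockdown and control cells the same test found 6 members, all lower (15.4%, against 1.67% of all genes tested). The terms were −0.97 for MOGS, −0.49 for DAD1, −0.45 for ALG2, −0.38 for MAGT1, −0.35 for RPN2 and −0.33 for OSTC. DAD1 lost its call in 8 alternative fits, and MAGT1 and RPN2 in 3 each. Both comparisons use the same 6 control libraries.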

How the results depend on the processing

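Over the 39 members and 9 comparisons, 4387 of 4677 alternative values were counted as unchanged. They kept their side of the threshold and their direction, or crossed 0 uncalled in both fits with a shift below the standard error. GANAB in CARM1 knockout against control with vehicle reversed with library totals (−0.15). It was not called with TMM. Counting this GANAB value, 46 results lost a call or reversed in at least 1 alternative, beside 172 calls in all. Library totals gave 3 members higher for knockout against control with vehicle (8 with TMM) and 3 with a higher response in the knockout (1 with TMM). For knockout against control with tunicamycin, 8 were higher with DESeq2 size factors and 7 without the filter (4 otherwise). Of all genes, 6767 of 17317 and 7326 of 30046 were higher in these fits. Without the filter, 1 member was higher for knockdown against control with vehicle and 4 had a higher response in the knockout, beside 632 and 2375 of 30046 genes. With all 18 libraries in one fit, 4 members were higher for knockdown against control with tunicamycin and 0 had a higher response in the knockout. Of all 17317 genes, 1502 and 1777 did so.

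Leaving out 1 library gave 3 to 5 members lower with tunicamycin in knockout cells and 3 to 6 in knockdown cells, 4 to 7 higher for knockout against control with tunicamycin, 0 to 1 higher and 1 to 2 lower for knockdown against control with vehicle, 0 to 3 higher and 9 to 15 lower with tunicamycin, and 0 to 4 with a higher response in the knockout. Of all 17317 genes tested, those fits called 2875 to 3018 and 2865 to 3042 lower with tunicamycin in knockout and knockdown cells. For knockout against control with tunicamycin, 6373 to 6599 were higher. For knockdown against control with vehicle, 146 to 580 were higher and 289 to 654 lower. With tunicamycin, 617 to 1055 were higher and 906 to 1417 lower. The response was higher in the knockout for 1549 to 2325. The replicate numbers did not pair the libraries, since the deviations of same-numbered libraries correlated at −0.051 to 0.045 over 45 pairs. With the replicate number as a block, tunicamycin raised 25 and lowered 4 members in control cells, 21 and 6 in knockout cells and 20 and 6 in knockdown cells, and 18 were lower for knockdown against control with tunicamycin. Of all genes tested, the block fits called 3825 higher and 3443 lower in control, 3509 and 3226 in knockout and 3117 and 3074 in knockdown cells. For knockdown against control with tunicamycin, 1525 were lower. Depth limits ALG10 and ALG10B most, and 3 libraries per group limit small differences.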
